A study of Arabidopsis thaliana with 20 samples.

Results

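Binding of HSFA1d was compared between Arabidopsis thaliana seedlings heated at 37 °C for 30 min (HS) and seedlings at 0 min of the heat series (HT0). The comparison rests on 2 deposited lists of peaks from chromatin immunoprecipitation and sequencing, in which DNA bound by a protein is pulled down with an antibody, read and mapped. Rows with the same fold enrichment and q that overlapped or adjoined were joined, and peaks in a dense stretch of chromosome 2 (3.2 to 3.65 Mb) and in its first 50 kb were left out. This left 1889 peaks in HS and 1136 in HT0, together 3025 of the 7502 peaks in the 6 lists of the series. An HS peak that overlapped no HT0 peak is called gained, an HT0 peak that overlapped no HS peak is called lost, and the others are called shared.

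Both groups were whole seedlings 2 weeks old, of mixed Col-0 and Ws background, grown at 22 °C in constant light. Both carried the same transgene, pHSFA1d::HSFA1d-GFP, in which the HSFA1d promoter drives HSFA1d joined to green fluorescent protein, and the antibody was against GFP. Each group had 3 ChIP samples and 3 of input chromatin, each made from about 60 seedlings. The authors merged the reads of a condition before peaks were listed, so the values have no replicate error and no test of a difference was possible. Total reads per library are unknown. A peak can be missing from a list because it fell below the caller's limit.

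HSFA1d belongs to the class A1 heat shock factors, which sit at the top of the plant heat response. In unstressed cells they are held inactive by HSP90 and HSP70 chaperones. When proteins unfold, the chaperones are drawn away, and the freed factors bind heat shock elements near gene starts and switch on chaperone genes and further transcription factors such as HSFA2, HSFA7A, DREB2A and MBF1C.

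Of the HS peaks, 1401 (74.2%) were gained and 488 were shared. Of the HT0 peaks, 665 (58.5%) were lost and 471 were shared. The lists differ in length, and with equal numbers of peaks, taken from the highest folds of each, 865 were gained and 862 lost. Below a q limit of 1e-05, 282 of 358 HS peaks (78.8%) were gained, against 21 of 125 HT0 peaks (16.8%) that were lost, each set against the whole of the other list. With that limit on both lists, 316 of 358 were gained and 85 of 125 lost. The setting against the whole of the other list was added after the data were seen. The highest fold was 5.60 in HS and 3.51 in HT0, and the median fold was 1.77 for gained peaks, 1.71 for shared HS peaks, 1.69 for shared HT0 peaks and 1.57 for lost peaks. The fold and q are the authors' own values per peak, and they are used here to rank and filter peaks within a list. An HT0 peak lay within 200 bp of 64 gained peaks, and of only 2 of the 282 with a q of at most 1e-05. An HS peak lay within 200 bp of 78 lost peaks, and 6 shared HS peaks overlapped an HT0 peak by under 10 bases.

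**Figure D1:**
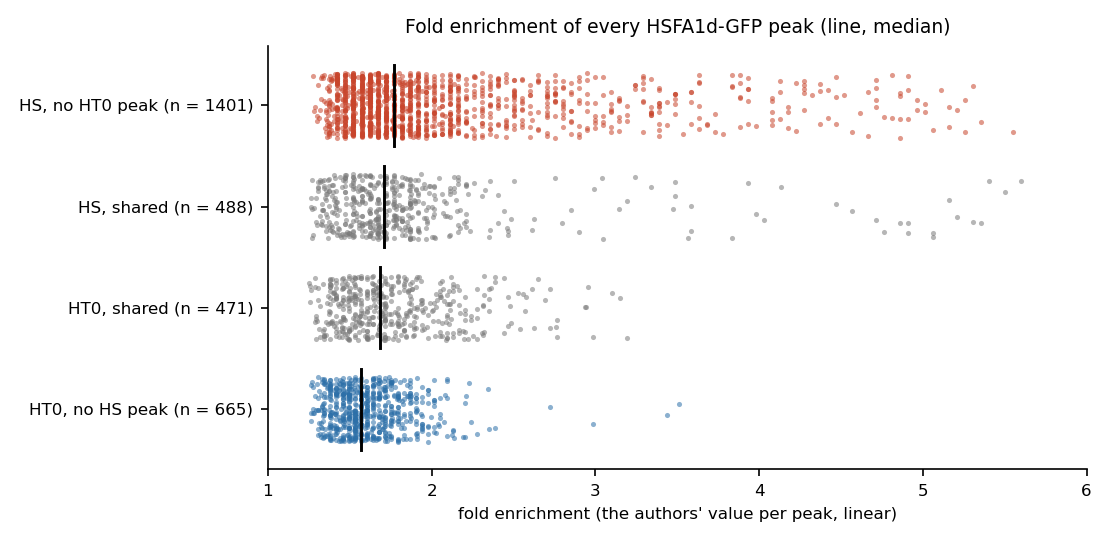
Fold enrichment of every peak in HS and in HT0 (x axis, linear, the authors' value), with 1 point per peak, points spread at random up and down within a row, and a line at the median. HS peaks reach 5.55 where gained and 5.60 where shared, while 4 lost HT0 peaks lie above 2.5 and most lie below 2.

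Gained peaks lay at promoters and gene starts more often than lost or shared peaks. A promoter row of a coding gene was touched by 78.9% of gained peaks and 51.4% of shared HS peaks, and by 55.8% of lost peaks. The start of a coding gene, read as a peak with both a promoter row and a gene row of that gene, lay inside 26.3% of gained peaks, 9.22% of shared HS peaks and 5.86% of lost peaks. Transposable element genes, the coding parts of mobile DNA, were touched by 12.0% of gained, 44.9% of shared HS and 42.7% of lost peaks. Gained peaks touched the promoters of at least 2 genes in 37.8% of cases, against 16.5% of lost peaks, so a peak is often shared by neighbouring genes. At a q of at most 1e-05, 92.9% of gained peaks touched a promoter and 62.1% held a gene start, while 33.3% of lost peaks touched a promoter, 0 of 21 held a gene start and 61.9% touched a transposable element gene. With that limit on both lists, the promoter shares were 92.7% of gained and 48.2% of lost peaks. Median widths were 141 bases for gained and 102 for lost peaks, and 452.5 and 84 bases at a q of at most 1e-05 in the list described alone. A peak must span both rows of a gene to count as holding its start, and the part played by width was not tested.

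In HS the shares of gene starts, promoters and transposable element genes followed the rank by fold. A gene start lay inside 94% of the 50 highest peaks, 82% of the next 50, 60% of places 101 to 200, 35% of places 201 to 400 and 10.1% of places 801 to 1889. The median width fell in the same order, from 890.5 bases in the first 50 places to 103 in the last band. The promoter share ran from 98% in the first 50 places to 65.1% in the last band, and the share with a transposable element gene from 0% to 27.2%. A gene of the 5 lists of chaperones and heat shock factors was touched by 54% of the 50 highest HS peaks, 30% of the next 50, 8% of places 101 to 200 and 2% of places 401 to 800. In the last band, the longest, the share was 3.12% (34 peaks). In HT0 the gene start share followed no such order. A gene start lay inside 4% of the 50 highest HT0 peaks and 9% of places 101 to 200, and chaperone or heat shock factor genes were touched by 0% of the 50 highest. Median widths of the HT0 bands lay between 110 and 212 bases. Whether the gene start share follows peak width was not tested. Of the 50 highest HT0 peaks, 16% were lost, against 65.8% of places 801 to 1136.

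**Figure D2:**
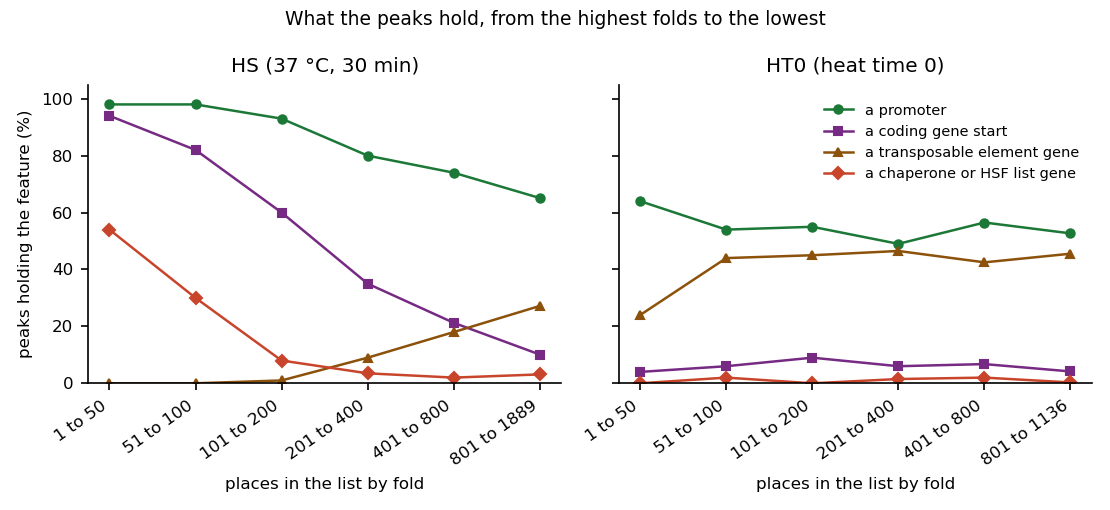
Share of peaks (y axis, %) that touch a promoter, hold a coding gene start, touch a transposable element gene or touch a gene of the 5 chaperone and heat shock factor lists, by place in the list (x axis, highest folds on the left), in HS (left) and HT0 (right). In HS the gene start share is 94% in the first band and 10.1% in the last, while in HT0 it lies between 4% and 9% throughout.

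Among all 27444 nuclear coding genes, 6.02% (1652 genes) had a peak in HS but not in HT0, 1.55% (425) had one in both and 1.31% (360) in HT0 alone. Of the 89 genes in the 5 chaperone and heat shock factor lists, 50 had a peak in HS alone, 11 in both and 1 in HT0 alone. The median fold of those with an HS peak was 4.37, against 1.87 over all coding genes with an HS peak. In all, 61 of the 89 had an HS peak, against 7.57% of all coding genes (2077). They were touched by 99 peaks, and 57 had their start inside one, against 1.57% of all coding genes (432). At a q of at most 1e-05, 45 of the 89 were gained, against 1.81% of all coding genes (497). Of the 202 genes in 18 other lists, 39 had a peak in HS alone, 15 in both and 10 in HT0 alone, with a median HS fold of 2.23.

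The small heat shock proteins, which keep unfolding proteins soluble, had a peak in HS alone for 16 of 18 genes, with no HT0 peak at any member. Their folds ranged widely. AT1G07400 had 5.30 and HSP17.6II and HSP17.6A had 5.26 in 1 peak that touches both genes, while HSP21, the chloroplast member, had 2.01 and HSP18.2 had 1.82 (q = 0.0315). The co-chaperones, which steer substrates to HSP70 and HSP90, had a peak in HS alone for 9 of 13, each with the gene start inside. The highest were Hop3 (5.26), ROF1 (5.21), AT5G48570 (5.11) and Fes1A (4.96).

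The HSP70, HSP90, HSP100 and HSP60 genes split between gained and shared. In the HSP70 family, 9 of 18 genes were gained and 3 had a peak in both lists. HSP70 (AT3G12580), a stress-induced member, had the second highest HS peak, 5.55 at chromosome 3, 3992947 to 3994567, and no HT0 peak. AT3G09440 and HSC70-1 had HS folds of 5.50 and 5.30, places 3 and 7, beside HT0 folds of 1.72 and 1.75, places 371 and 327. Among HSP90, HSP100 and HSP60 genes, 12 of 19 were gained and 5 had both. HSP90.1, the stress-induced cytosolic HSP90, had 5.35 in HS and no HT0 peak, whereas HSP81-2, another cytosolic HSP90, had 5.40 in HS and 1.72 in HT0. HSP101, the disaggregase needed for heat tolerance, had 5.16 in HS alone. Other gained genes of these lists were Hsp70-15 (4.81), cpHsc70-2 (4.67), CPN20 (4.27), CPN60A (3.93) and CR88 (3.39).

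The HT0 peaks at shared chaperone genes were weak. In HT0, q was 0.0283 at AT3G09440 and HSP81-2, 0.0510 at HSP81-3, 0.0901 at MTHSC70-2, 0.155 at CPN10 and 0.432 at Cpn60beta2. The shared chaperone genes other than CPN10 also had peaks in the time 0 list of the wounding series, from 1 ChIP sample. Folds there were 4.61 at HSC70-1, 4.12 at HSP81-2, 3.70 at Cpn60beta2, 3.21 at AT3G09440, 2.31 at HSP81-3 and 2.18 at MTHSC70-2. Leaving out peaks with a q above 0.05 in both lists, 53 of the 89 genes had a peak in HS alone.

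Of the 21 heat shock factor genes, 4 were gained, 3 had a peak in both lists and 1 in HT0 alone. Of all coding genes, 6.02%, 1.55% and 1.31% did so. The other 13 factor genes had no peak in either list. HSFA2, the factor that prolongs the response, had the highest HS peak, 5.60 at chromosome 2, 11135070 to 11136537, beside an HT0 fold of 2.09 (q = 2.71e-05), place 94. HSFB2B, listed as AT-HSFB2B and a repressor of the class B, had 5.06 in HS and 1.75 in HT0. HSFA7A (4.72), HSFA7B (listed as AT-HSFA7B, 3.39), HSFB2A (3.14) and HSF4 (2.46) were gained. HSFA7A and HSF4 also had peaks of 1.58 and 1.70 in the time 0 list of the wounding series. With both time 0 lists as the control, 2 of the 21 were gained. HSF A4A had an HT0 peak alone, at 1.68.

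At the gene of the tagged factor itself, HSFA1D (AT1G32330), HS had 4 peaks and HT0 had 2, all shared. The strongest had a fold of 1.99 (q = 3.00e-06) in HS, place 561, and 1.71 (q = 6.75e-05) in HT0, place 415, and held the gene start in both. A peak was listed there in all 6 lists, with folds of 1.88 in WT0, the time 0 of the wounding series, and 2.30, 1.98 and 1.59 at 10 min, 3 h and 24 h after wounding. The transgene carries the same promoter and gene, and its reads cannot be told apart from those of the native locus.

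Most of the strong gained peaks touched no gene of the 5 chaperone and heat shock factor lists. Of the 282 with a q of at most 1e-05, 47 touched a gene of the 5 lists and 234 touched neither such a gene nor one whose name contains heat shock, chaperone, DnaJ or HSF. The 48 with such a gene or name had a median fold of 4.27 and held a gene start in 91.7% of cases. The 234 others had a median fold of 2.92 and held a gene start in 56.0%. Median widths were 666.5 bases for the 48 and 418 for the 234. Inside these strong peaks lay the starts of 194 coding genes, 150 of them outside the lists and names. Among the 25 highest gained peaks, 14 touched a gene of the 5 lists.

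Several of the highest peaks without a chaperone name lay at genes that assist chaperones all the same. AR192, which encodes a GrpE-type exchange factor of organelle HSP70, had a fold of 5.16 at chromosome 4, 13486632 to 13487203. AT1G66080, related to Hikeshi, the carrier that brings HSP70 into the nucleus, had 5.01 at chromosome 1, 24600873 to 24601420. BOB1, a NudC-domain protein with chaperone activity, had 5.01 at chromosome 5, 21661117 to 21661799. AT2G20560 and AT1G71000, which encode DnaJ-type proteins though their listed names do not say so, had 4.72 and 4.37. All 5 genes had their start inside the peak and none had an HT0 peak.

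CDC48, the ATPase that extracts ubiquitin-marked proteins, had 4.62 at chromosome 3, 3018733 to 3019516, and AtCDC48B had 2.65. AT1G26800, a RING-type ubiquitin ligase that responds to misfolded proteins, had 4.72, and SK18, a SKP1-like part of ubiquitin ligases, had 4.67. In the list of ubiquitin, CDC48 and proteasome genes, 4 of 15 were gained, with a median fold of 2.53, 1, UBQ14, was lost and 10 had no peak. The polyubiquitin gene UBQ10 had 2.41 and UBQ6 had 1.57 (q = 0.599). Among 33 ubiquitin-conjugating enzymes, a family picked by symbol after its values were seen, 5 were gained (15.2%, against 6.02% of all coding genes). UBC2 had 4.27, UBC11 and UBC12 had 3.14 in 1 peak, and UBC1 and UBC9 had 1.67 (q = 0.199) and 1.52 (q = 0.993).

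Endoplasmic reticulum genes were gained for 3 of 12 list members (25%, against 6.02% of all coding genes) and lost for 1. ATERDJ3A, a DnaJ protein of the reticulum, had 4.27, BZIP17, a membrane-bound stress factor, had 3.09, and CRT3, a calreticulin, had 2.31. SDF2 was lost, with an HT0 fold of 2.09 (q = 2.71e-05). Outside the list, TIN1, named for its induction by tunicamycin, an inhibitor of protein glycosylation, had 4.86 at chromosome 5, 25784063 to 25785014. Membrane-bound BZIP28 (1.96), in the list of heat stress regulators, was gained with its start inside the peak.

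In the list of heat stress regulators, 6 of 10 genes had a peak in HS alone (60%, against 6.02% of all coding genes). DREB2A, a factor of drought and heat responses, had 4.52 at chromosome 5, 1601810 to 1602480. MBF1C, a coactivator needed for heat tolerance, had 4.42, HSA32, which sustains acquired tolerance, had 3.09, ATAF1 had 2.16 and DREB2C had 1.87. NAC2 (AT5G04410), a NAC transcription factor, had 4.81 in 1 peak that also touched NAC077. GTE2, a bromodomain protein, had 4.47 without its start inside the peak. The C2H2 and WRKY stress regulators had 3 gained of 11 (27.3%). Of these, only RHL41 (2.90) had a q of at most 1e-05, with WRKY33 at 1.77 (q = 0.0597) and STZ at 1.52 (q = 0.993).

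RNA processing genes were among the strong gained peaks. SR30, which encodes a serine/arginine-rich splicing factor, had 4.91 at chromosome 1, 2945460 to 2946287. SR45a had 3.93 and SCL33 had 3.29. In the list of RNA splicing and RNA binding, 3 of 10 genes were thus gained (30%), each with the start inside. Of 9 argonaute genes, whose proteins carry small RNAs and which were picked by symbol after their values were seen, AGO2 (3.93) and AGO1 (3.29) were gained. Counts were made for 13 such families, and 5 had a gained share below the 6.02% of all coding genes. WRKY factors (4 of 67, 5.97%), B-box factors (1 of 19, 5.26%) and MYB factors (6 of 120, 5%) lay near that share. UDP-glycosyltransferases had 1 of 58 (1.72%) and SAUR genes 0 of 16. Above it were cytochrome P450 (18 of 229, 7.86%), NAC factors (7 of 83, 8.43%) and U-box ligases (2 of 22, 9.09%). So were ethylene response and DREB factors (5 of 43, 11.6%) and aquaporins (5 of 37, 13.5%), beside the families described by name. None of the 10 translation genes and none of the 10 chromatin and heat memory genes had a peak in either list.

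PDX1.2, a catalytically inactive partner of the vitamin B6 synthases, had 4.86 at chromosome 3, 5444720 to 5445715, with its start inside. In the list of galactinol, raffinose and inositol synthesis, which makes protective sugars, 3 of 7 were gained (42.9%, against 6.02% of all coding genes). GolS2 had 3.00, GolS1 had 2.70 and MIPS2 had 2.16, while MIPS1 had 1.67 (q = 0.199) in HS and 1.75 (q = 0.0154) in HT0. GolS2 and GolS1 also had WT0 peaks, of 2.37 and 1.82. With both time 0 lists as the control, 1 of the 7 was gained. Of 47 glutathione S-transferase genes, enzymes that attach glutathione to toxic compounds and that were picked by symbol after their values were seen, 5 were gained (10.6%) and 1 was lost. The highest, GSTU1 and GSTU2 at 4.37, share 1 peak with the small heat shock protein gene AT2G29500, whose start it holds. GSTF8 had 3.73 and GSTU5 had 3.59.

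Of the 9 antioxidant genes, 2 had a peak in both lists and 1 in HS alone, against 1.55% and 6.02% of all coding genes. The other 6 had no peak in either list. CAT2 (AT4G35090), a catalase, had 3.49 in HS and 1.38 (q = 1) in HT0, in a peak that also touched PIP3, an aquaporin. APX1, a cytosolic ascorbate peroxidase, had 3.34 in HS and 1.90 (q = 0.00109) in HT0. APX2, its heat-inducible relative, had 2.16 in HS and no HT0 peak.

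**Figure D3:**
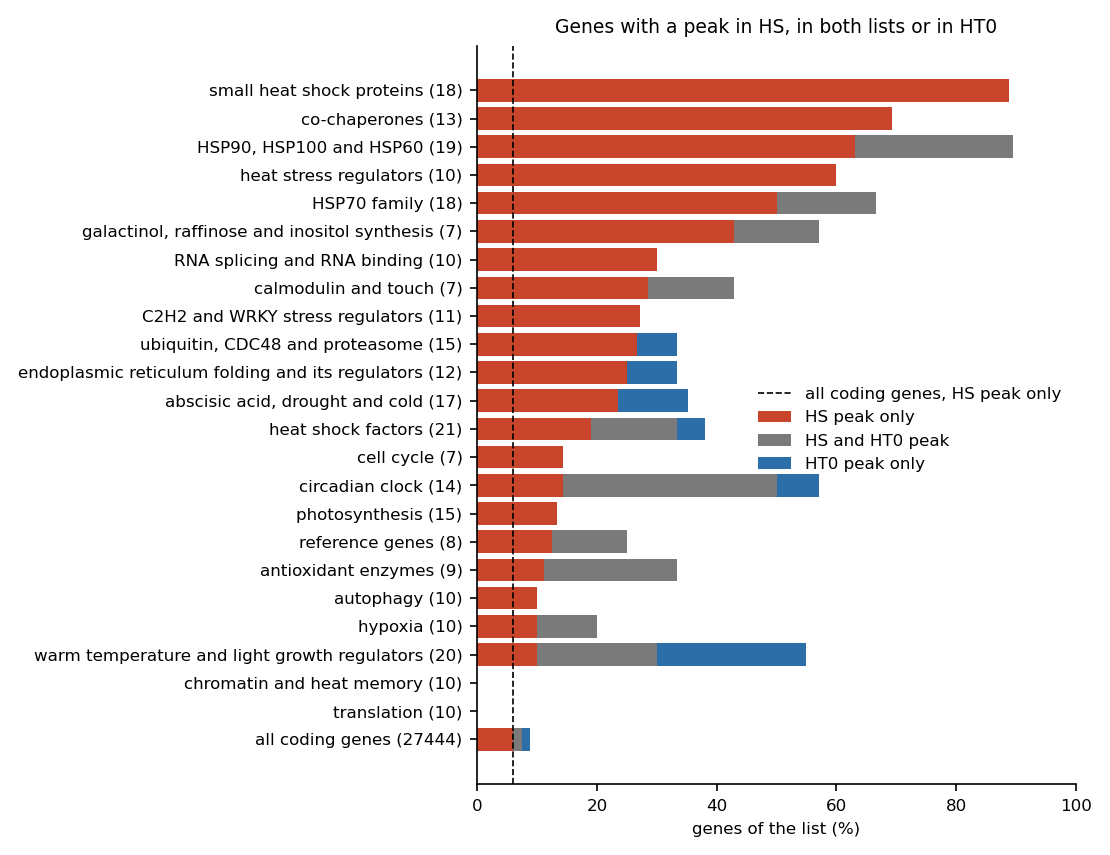
Share of the genes of each list (x axis, %; number of genes in brackets) with a peak in HS alone, in both lists or in HT0 alone, ordered by the first share, with all coding genes in the bottom row and their 6.02% as a dashed line. Small heat shock proteins have 16 of 18 genes in HS alone, while warm temperature and light growth regulators have 5 of 20 in HT0 alone and the clock genes have 5 of 14 in both.

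Of the 14 circadian clock genes, 5 had a peak in both lists, 2 in HS alone, 1 in HT0 alone and 6 in neither, against 1.55%, 6.02% and 1.31% of all coding genes. AT5G64170, known as LNK1, a coactivator of evening genes, had 3.49 in HS and 1.98 in HT0. The repressors PRR9 and PRR7 had 3.24 and 2.90 in HS, beside 1.87 and 1.79 in HT0. CCA1, the morning factor, had 2.51 in HS and 1.57 (q = 0.262) in HT0, and its partner LHY had 1.57 (q = 0.599) in HS alone. At GI, 4 peaks were listed in HS and 2 in HT0, and the strongest HS peak (3.44, chromosome 1, 8059329 to 8059871) was gained, while the strongest HT0 peak (2.31, chromosome 1, 8060621 to 8061066) met HS peaks of 1.87. EPR1, a MYB-like gene of the clock family outside the list, had 4.57 in HS and 1.75 in HT0.

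Of the 20 warm temperature and light growth regulators, 5 had a peak in HT0 alone, against 1.31% of all coding genes, 4 in both and 2 in HS alone. None of the 5 had an HT0 q of at most 1e-05. They were HFR1 (1.98, q = 0.000261), PAR1 (1.83, q = 0.00426), IAA19 (1.79, q = 0.00817), PHYB (1.49, q = 0.695) and HB-2 (1.38, q = 1). HFR1 and PAR1 encode atypical bHLH proteins that restrain growth in shade, IAA19 is an auxin response gene, PHYB encodes the red light receptor and thermosensor phytochrome B, and HB-2 is a shade-induced homeobox gene. PIF3 and PIF7, growth-promoting bHLH factors, had HS peaks alone of 1.62 (q = 0.35) and 1.87 (q = 0.0164). UNE10, a relative of the PIF factors outside the list, was lost with an HT0 fold of 2.20, and so was BBX28, a B-box regulator of light signalling, with 2.73.

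PIF4, SOB3 and HY5 had their highest folds inside the gene and not at its promoter. SOB3, which encodes an AT-hook protein that restrains seedling growth, had 1 peak of 5.35 in HS, place 5, at chromosome 1, 28705542 to 28706427, and 1 of 1.88 in HT0, at 28705552 to 28706415. PIF4, the central bHLH factor of warm temperature growth, had 4 HS peaks in its gene, with folds of 4.13, 2.75, 5.16 and 3.93 in order along chromosome 2. The first of these covered 17887164 to 17887805 and the third 17888265 to 17888574. At the PIF4 promoter the fold was 2.16 in HS and 1.72 in HT0, in separate peaks. HT0 had 2 peaks in the PIF4 gene, 2.17 at 17887174 to 17887781 and 2.04 at 17888272 to 17888567. HY5, the bZIP factor that promotes light development, held the 2 highest peaks of HT0, 3.51 at chromosome 5, 3594294 to 3594461, and 3.43 at 3594044 to 3594178, and both were lost. They lay in the HY5 gene, at promoters of neighbours and not at that of HY5. A weaker HT0 peak, 2.24 at 3594717 to 3595379, held the HY5 start and met an HS peak of 1.87 (q = 0.0164).

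The edges of the SOB3 and PIF4 peaks matched between conditions. For SOB3 they differed by 10 and 12 bases between HS and HT0, and for the strongest PIF4 peak by 7 and 7. Of the 16 shared peaks among the 50 highest of HS, these were the 2 with both edges within 12 bases, and the median larger edge difference was 394 bases. The limit of 12 bases was chosen after these values were seen. Of the 76 shared HS peaks below the q limit of 1e-05, 35 had both edges within 12 bases, and the median larger difference was 48 bases. No peak of any wounding list met the SOB3 peaks, the PIF4 peaks in the gene or the 2 strongest HY5 peaks. Exon positions were not used here, so whether these blocks follow exons, and whether their reads came from chromatin bound by HSFA1d, was not tested.

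Away from coding genes, 13 of the 21 lost peaks with a q of at most 1e-05 touched a transposable element gene, as did 44% of all 125 HT0 peaks at that q. Among the shared HS peaks, 219 touched such a gene, with a median fold of 1.60 in HS and 1.65 in HT0. Those at a promoter and at no such gene numbered 242, with a median of 1.82 in HS and 1.72 in HT0. Across the 488 shared HS peaks, the HS fold and the fold of the strongest HT0 peak met had a Spearman correlation of 0.43 as a description, and peaks of repeated sequence share mapping and the same 2 pools of reads.

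**Figure D4:**
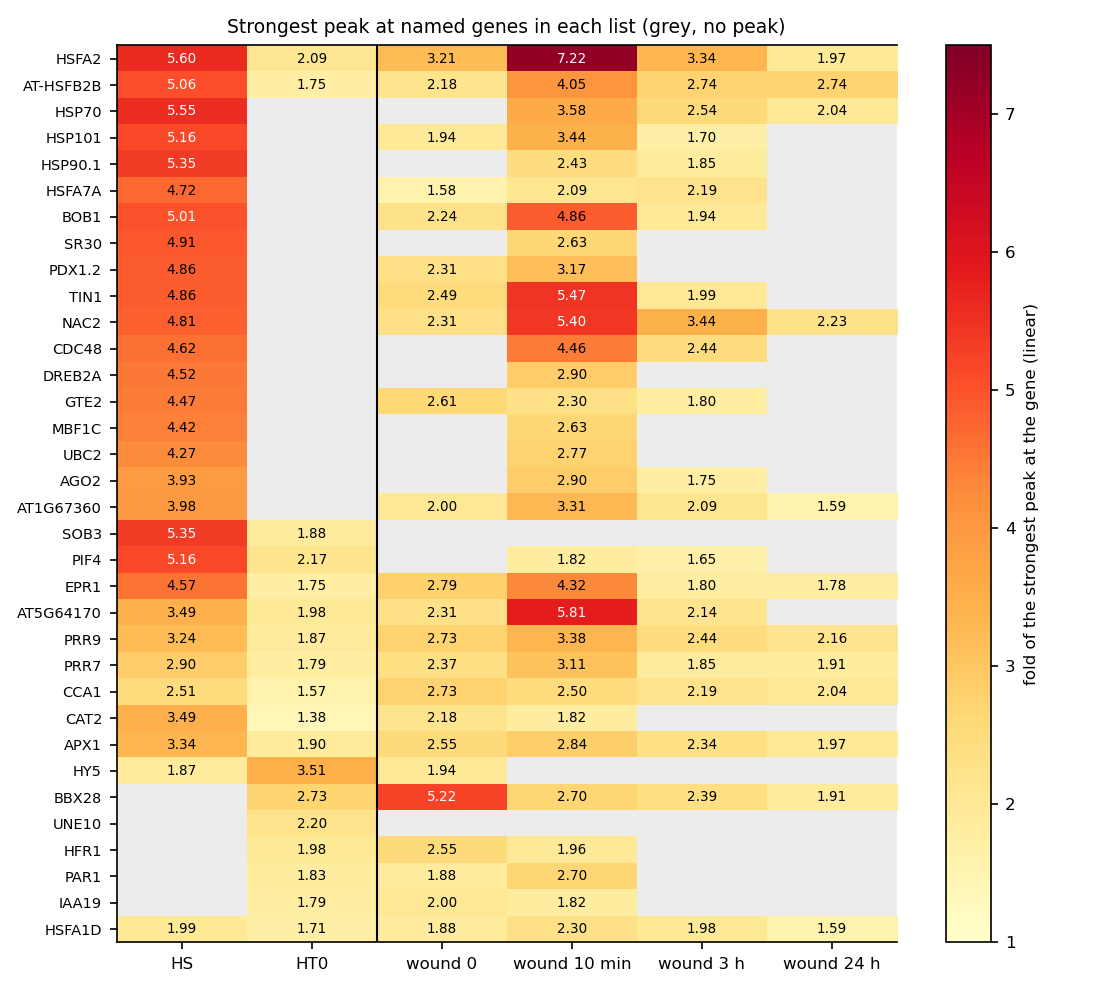
Fold of the strongest peak (colour and number, linear) at 34 named genes (rows) in HS, HT0 and the 4 wounding lists (columns), with grey where no peak is listed. SOB3 reads 5.35 in HS and 1.88 in HT0 with no wounding peak, while HSFA2 has a peak in all 6 lists. PIF4 has wounding peaks of 1.82 and 1.65 outside the gene blocks described.

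The wounding lists come from plants of the same line, with 1 ChIP and 1 input sample each. They form a series of wounding with a razor blade, at 0 min (WT0), 10 min, 3 h and 24 h. Of the 282 gained HS peaks below the q limit of 1e-05, 76 (27.0%) met a WT0 peak, 159 (56.4%) met a peak at 10 min, 82 at 3 h and 13 at 24 h. A peak at 10 min and none in WT0 was met by 90, and the reverse held for 7. Of the 76 shared HS peaks at that q, 53 met a WT0 peak and 54 a peak at 10 min. Of the 21 lost HT0 peaks at that q, 3 met a WT0 peak and 2 a peak at 10 min.

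WT0 is a second time 0 list, and peaks absent from HT0 were present there at several genes. BOB1 had 2.24 in WT0, PDX1.2 had 2.31, TIN1 had 2.49, GTE2 had 2.61 and NAC2 had 2.31, all with no HT0 peak. The same held for AGO1 (2.55) and for genes of the chaperone lists. Among the latter were Hsp70-15 (2.85), cpHsc70-2 (2.67), CPN60A (2.31), J3 (2.24) and HSP101 (1.94). HSP70, HSP90.1, SR30, CDC48, DREB2A and MBF1C had no peak in either time 0 list. With both time 0 lists as the control, 1201 HS peaks met neither, 1297 coding genes were gained, and 37 of the 89 genes in the 5 chaperone lists and 28 of the 202 genes in other lists were among them. Some single lists fell by over 1.5 times with this control. Their gained genes numbered 5 for the HSP70 family, 2 for heat shock factors and 2 for ubiquitin, CDC48 and proteasome. The galactinol, clock and calmodulin lists kept 1 each, and photosynthesis kept 0. BBX28, lost after heat, had 5.22 in WT0 and 2.70 at 10 min after wounding.

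**Figure D5:**
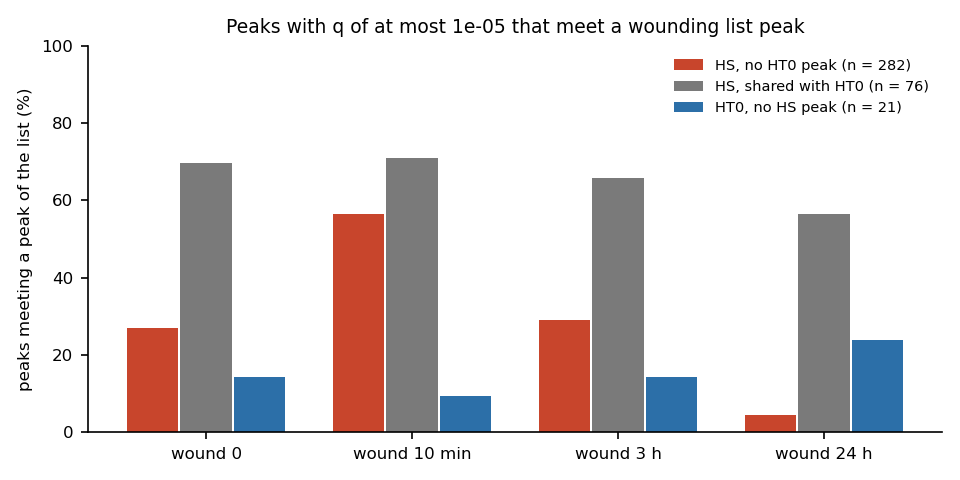
Share of peaks with a q of at most 1e-05 (y axis, %) that overlap a peak of each wounding list (x axis, by time after wounding), for HS peaks with no HT0 peak, HS peaks shared with HT0, and HT0 peaks with no HS peak. Of the HS peaks with no HT0 peak, 56.4% meet the 10 min list and 27.0% meet the time 0 list.

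The remaining lists held few strong peaks. For abscisic acid, drought and cold, 4 of 17 genes were gained (23.5%, against 6.02% of all coding genes), ABI1 the highest at 1.96. CBF2 and DREB1A were lost with HT0 folds of 1.46 and 1.34 (q = 1 each). Calmodulin and touch genes had 2 of 7 gained (28.6%), all at 1.52 with a q of 0.993, and hypoxia and autophagy genes had 1 of 10 each. In photosynthesis 2 of 15 were gained (13.3%). RCA, the activase of carbon fixation, had 2.51 with its start inside, and PSBO1 had 1.47. Both also had WT0 peaks, of 1.94 at RCA and 2.43 at PSBO1. With both time 0 lists as the control, 0 of the 15 were gained. AT1G07500 (2.75) was the 1 of 7 cell cycle genes gained. Of the 8 genes often used as references, UBC9 was gained at 1.52 and GAPC1 had 3.19 in HS and 1.61 in HT0.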

How the data were processed

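Per the labels' protocols, chromatin from cross-linked whole seedlings was precipitated with an antibody against GFP, and fastq files of a condition were concatenated, so each condition has 1 peak list. Bowtie2, SAMtools and MACS2 were used with build TAIR10, per the submitters' processing notes, which give no versions. The authors deposited, per the file headers, a fold enrichment per peak, which is a ratio, and a −log10 q per peak. No filter on q is stated.

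Starts count from 0, and 1 was added. Rows of equal fold and q with at most 1 base between them were joined, and peaks in the 2 chromosome 2 windows dropped. Peaks met when at least 1 base overlapped. Any row that named a gene gave it a peak. Symbols came from a RefSeq table of TAIR10.1; 35 of 2506 gene identifiers in HS and 16 of 1222 in HT0 were not in it. Ties in fold share the lowest rank. Labels gave the groups. Joining and overlap were tested on simulated data, and all 2000 simulated peaks were rebuilt. Python 3.11.15, pandas 2.3.3, numpy and scipy were used.

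The members and the 23 gene lists were chosen with earlier results of these data known. Named genes are those of the 25 highest gained peaks, the 15 highest shared, the 15 highest lost, the 20 highest gained without a chaperone name, up to 5 gained and 3 shared members per list, and HSFA1D; fewer were named, and others (the symbol families and the peaks described by their edges) were chosen after their values were seen. Alternatives tried are in the closing part. No sequence was used.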

Additional observations from a re-analysis of the deposited data

How the results depend on the processing

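No paired analysis was possible because each list holds pooled reads, and leaving out replicates was not possible for the same reason. The alternatives listed for the 9 main values, and 1 added after seeing the data, gave the following values. Requiring a q of at most 0.05 in both lists gave 731 gained peaks (83.2% at a promoter), 334 lost (44.9%), 1068 genes gained and 180 lost. A q of at most 1e-05 in both gave 316 (92.7%), 85 (48.2%), 554 and 55, with 24 gained genes in the 18 other lists. The same q in the list described alone, added later, gave 282 (92.9%), 21 (33.3%), 497 and 9, with 16 in the other lists and 71.1% of shared HS peaks at a promoter. Peaks at or above the median fold gave 766 gained (82.9%), 424 lost (51.4%) and 64.2% of shared HS peaks. Equal numbers of peaks gave 865 gained (83.4%) and 862 lost (51.9%), 499 genes lost and 62.4% of shared. The 862 and 499 were higher than the main 665 and 360, within 1.5 times. Shared promoter shares were 44.6% with a reciprocal overlap of 50% and 62.7% with WT0 added to the control. Rows not joined gave 2204 gained at 63.9%. The q and fold limits leave fewer peaks, while equal numbers gave more lost peaks and unjoined rows more gained ones. The cause of the changed promoter shares was not tested. In every setting run, gained peaks had a higher promoter share than lost ones where both were given. With WT0 in the control lost peaks have no value, and gene counts do not use peak overlap. The remaining main values, among them the chaperone count (37 to 56 genes), kept within 1.5 times or the 95% binomial interval. Of 207 counts of single lists, 50 moved by over 1.5 times, 45 of them down. The share of promoters with heat shock elements was not run.

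Depth per library is unknown, and peaks near the caller's limit can pass in 1 list and fail in the other. There are no replicate lists, neighbouring genes share peaks, and parts of peaks outside annotated features are not listed.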
